A study of Mus musculus with 8 samples.

Results

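The 40 kinesin genes examined here were taken by name from the kinesin superfamily, out of 21774 mouse protein-coding genes. They were divided, also by name, into 12 mitotic kinesins (Kif2c, Kif4, Kif11, Kif14, Kif15, Kif18a, Kif18b, Kif20a, Kif20b, Kif22, Kif23 and Kifc1) and 28 others. All 40 symbols were found in the gene table. A kinesin was counted in a library when at least 1 base of a called peak lay inside the gene or within 1 kb of its start or end, and at a time when this held in at least 2 of the 3 libraries of that time.

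Chromatin immunoprecipitation with a polyclonal rabbit antibody against APOBEC2, followed by sequencing, was done in C2C12, an established mouse myoblast line. Cells were switched from growth serum to 2% horse serum, which induces differentiation into myotubes, and harvested at times labelled 14 h and 34 h (the growth protocol gives the earlier harvest as 24 h). At either time 3 libraries came from the immunoprecipitate (IP) and 1 from input chromatin. Peak names in all 6 lists carry the tag GFPsh, which the labels do not explain, and the same tag stands on the inputs, so it is shared by every group. A control antibody, or cells lacking APOBEC2, were not among the libraries analysed here. Peak lists cannot check the cell type, and the labels do not say whether replicates came from separate cultures.

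Kinesins are motor proteins that bind microtubules and, in most cases, walk along them by hydrolysing ATP. One set moves vesicles, organelles and ciliary cargo in cells that need not be dividing, and another builds the spindle, moves chromosomes and cuts the cell at cytokinesis. Genes of the mitotic set are typically transcribed in G2 and mitosis and shut off when myoblasts leave the cell cycle. APOBEC2 is a muscle-enriched relative of the cytidine deaminases AID and APOBEC1.

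Replicates 1, 2 and 3 of 14 h gave 768, 1327 and 797 peaks, and those of 34 h 2209, 5025 and 1068. Read totals are not in the peak lists. The number of fragments stacked at each summit could be solved from the deposited fold and p-value, and its median per library was 19 to 24. Fold below means the authors' fold enrichment of IP signal over local background at the summit. Over the 428 regions with a peak in all 6 libraries the median fold was 11.3, 17.3 and 12.0 at 14 h and 9.62, 12.3 and 7.57 at 34 h, so replicate 2 was highest at both times and replicate 3 of 34 h lowest of all.

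Called peaks were found at nearly all mitotic kinesins in each library and at few of the others. All 12 mitotic kinesins had a peak at 14 h and all 12 at 34 h, whereas 2 of the 28 others did at either time. Of all protein-coding genes, 4.29% met the same rule at 14 h and 9.06% at 34 h. By library, the mitotic count was 12 of 12 in 5 libraries and 11 of 12 in replicate 3 of 34 h, where Kif11 had no called peak. The others numbered 2, 3 and 2 of 28 at 14 h and 2, 10 and 2 at 34 h. The share of all protein-coding genes with a peak was 3.74%, 6.54% and 3.99% in the libraries of 14 h and 9.29%, 18.2% and 4.72% in those of 34 h. All 3 libraries of 14 h had a peak at 12 mitotic kinesins and 2 others (2.98% of all genes), and all 3 of 34 h at 11 and 2 (3.97%). In all 6 libraries a peak was called at 11 mitotic kinesins, at 2 others and at 2.27% of protein-coding genes. No p-value is given for the contrast of the kinesin sets, because the genes were listed with earlier results of these data known and genes are not replicates.

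**Figure D1:**
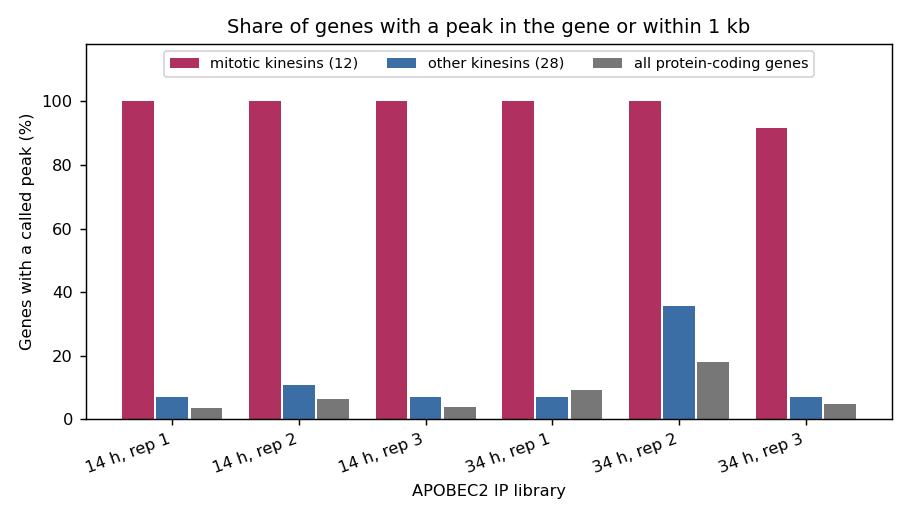
Share of genes with a called peak inside the gene or within 1 kb (y axis, %), in each of the 6 APOBEC2 IP libraries (x axis), for 12 mitotic kinesins, 28 other kinesins and all protein-coding genes; bars are single libraries and carry no error. Mitotic kinesins reached 100% in 5 libraries and 91.7% in replicate 3 of 34 h, and the other kinesins stood at 7.14% in 4 libraries and at 35.7% in replicate 2 of 34 h.

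The highest fold of any kinesin at 34 h was at Kif20a, one of the motors of the central spindle and cytokinesis. Kif20a, which carries the chromosomal passenger complex to the midzone, had a fold of 23.0, 45.3 and 23.7 in replicates 1 to 3 of 14 h and of 31.4, 30.9 and 24.5 in those of 34 h (chromosome 18, 34624557 to 34625217 on mm10). Its peak was the second highest by fold in replicates 1 and 3 of 34 h, among 2209 and 1068 peaks. The region also lies within 1 kb of a boundary of Brd8, so it cannot be given to Kif20a alone.

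Kif23, the motor subunit of centralspindlin, had a fold of 18.3, 31.9 and 21.6 at 14 h and of 8.90, 11.6 and 11.1 at 34 h (chromosome 9, 61946569 to 61946984). Its highest 34 h value lay below its lowest 14 h value, as at 31.5% of the 428 common regions (7.48% had all 34 h folds above). The other kinesins with all 34 h folds below were Kif2c, Kif18b and Kif24, so 4 of 13 kinesin regions did, near that share. Kif20b, which acts late in cytokinesis, gave 10.1, 19.7 and 12.3 at 14 h and 11.6, 13.6 and 7.47 at 34 h, with overlapping groups. At Kif14, a motor of the midbody, the fold was 10.5, 17.9 and 14.2 at 14 h and 9.63, 13.1 and 5.47 at 34 h, again overlapping. Kif4, a chromosome-bound motor that also shortens midzone microtubules with Prc1, gave 7.85, 15.9 and 7.02 at 14 h and 6.82, 12.5 and 8.08 at 34 h. Replicate 2 stood clear of the other replicates at both times for Kif4, whose region is shared with a boundary of Pdzd11.

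Motors that set microtubule length at kinetochores and spindle poles came next. Kif18b, a depolymerase of astral microtubule ends, had a fold of 26.4, 38.8 and 24.6 at 14 h and of 22.0, 19.6 and 11.3 at 34 h (chromosome 11, 102924881 to 102925347). The Kif18b summit stood on 63, 106 and 62 fragments at 14 h, against a local background of 1.43 to 1.76, and on 77, 81 and 44 at 34 h, against 2.54 to 3.18. The groups do not overlap on the fold scale, and they do overlap in fragments and in the ranks given further on.

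Kif2c, the kinesin-13 that removes tubulin at kinetochores and corrects wrong attachments, gave 18.3, 34.8 and 24.1 at 14 h and 14.9, 16.2 and 12.1 at 34 h. Kif18a, which damps the movements of chromosomes at the metaphase plate, gave 8.13, 10.6 and 8.69 at 14 h and 12.0, 12.1 and 7.77 at 34 h. The groups overlap, and Kif18a had the lowest mean fold of the 12 mitotic kinesins at 14 h. The Kif18a region also touches a boundary of Mettl15.

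The spindle assembly motors completed the mitotic set. Kif15 and Kif11 both push spindle poles apart. Kif15 had a fold of 16.7, 29.2 and 15.5 at 14 h and of 11.1, 16.0 and 6.50 at 34 h (chromosome 9, 122950865 to 122951311, shared with a boundary of 1110059G10Rik). Kif11 gave 8.13, 13.9 and 14.0 at 14 h and 6.56 and 11.7 in replicates 1 and 2 of 34 h, with no peak called in replicate 3. Of the 3 libraries of 34 h this one gave the lowest fold at 11 of the 13 kinesins with a peak in all 3, and a site below the caller's threshold is not shown to be unbound. Kifc1, a minus-end motor that focuses spindle poles, gave 16.0, 21.4 and 16.8 at 14 h and 11.4, 16.4 and 9.89 at 34 h. Kif22, which pushes chromosome arms away from the poles, gave 13.0, 15.1 and 11.6 at 14 h and 13.4, 11.5 and 6.37 at 34 h. A smaller peak, with a fold of 6.03 and 5.37, was called near the other end of Kif22 in replicate 2 of each time, at the boundary of Maz.

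**Figure D2:**
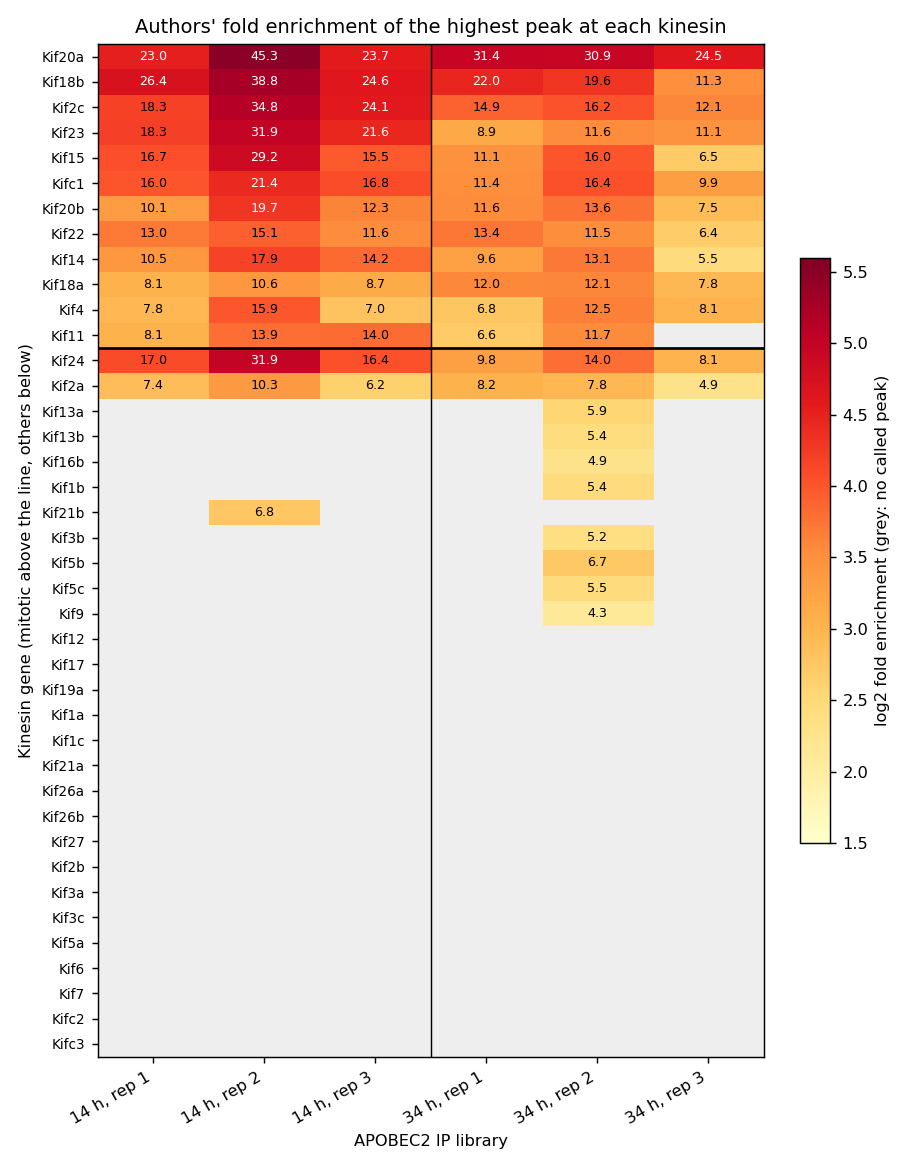
Fold of the highest peak at each of the 40 kinesin genes (rows; mitotic above the line, others below) in the 6 APOBEC2 IP libraries (columns); colour is log2 fold, printed numbers are the linear fold, and grey marks no called peak. The mitotic block is filled but for Kif11 in replicate 3 of 34 h, and below the line only Kif24 and Kif2a have peaks in more than 1 library.

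Among the 28 other kinesins, 2 had a peak in all 6 libraries, and both belong to the kinesin-13 family, as Kif2c does. Kif24, a centriolar kinesin that depolymerises microtubules and restrains cilium formation, gave 17.0, 31.9 and 16.4 at 14 h and 9.75, 14.0 and 8.08 at 34 h (chromosome 4, 41464655 to 41465231). These values lie within the range of the mitotic kinesins in every library. The region is shared with a boundary of Nudt2. Kif2a, a depolymerase with roles at spindle poles and in neurons, gave 7.38, 10.3 and 6.18 at 14 h and 8.17, 7.78 and 4.90 at 34 h (chromosome 13, 107022364 to 107022728). Kif2a was below the lowest mitotic kinesin in 5 of the 6 libraries, the exception being replicate 1 of 34 h. The remaining kinesin-13 of the list, Kif2b, had no peak in any library.

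In any of the 6 libraries 11 of the 28 others had a peak (20.3% of all genes). Of these 9 had it in a single library (9.62% of all genes), 8 of them in replicate 2 of 34 h, the longest list, where 18.2% of all protein-coding genes had one. Those 8 were the cargo motor genes Kif1b (fold 5.39), Kif3b (5.20), Kif5b (6.70), Kif5c (5.48), Kif13a (5.92), Kif13b (5.37) and Kif16b (4.87), and Kif9 (4.31), a gene linked to cilia. The Kif9 peak is shared with a boundary of Klhl18. Kif21b, a neuronal kinesin, had a fold of 6.76 in replicate 2 of 14 h. Each of the 9 stood below every mitotic kinesin of the same library. The 28 genes are long, with a median of 47.5 kb against 17.2 kb for all protein-coding genes and 37.5 kb for the mitotic kinesins. The part of gene length in these counts was not tested. With only the 1 kb around gene boundaries counted in replicate 2 of 34 h, 6 of 28 others (21.4%) and 12 of 12 mitotic kinesins had a peak, against 14.2% of all genes. By the same boundary rule in at least 2 libraries, 12 mitotic kinesins and 2 others were found at either time, against 3.89% of all genes at 14 h and 7.39% at 34 h.

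The remaining 17 had no called peak in any library. They comprise transport motors (Kif1a, Kif1c, Kif3a, Kif3c, Kif5a, Kif17, Kifc2 and Kifc3), Kif7 and Kif27, relatives of each other of which Kif7 acts at the ciliary tip in Hedgehog signalling, and Kif6, Kif12, Kif19a, Kif21a, Kif26a, Kif26b and Kif2b. None of the kinesin-1 and kinesin-2 genes, which haul organelles and ciliary trains, had a peak in more than 1 library. This is not particular to them, since of all protein-coding genes 20.3% had a peak in any library and 9.62% in exactly 1.

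The same counts can be listed by family, for families that hold both kinds of motor, which adds no separate evidence. Few peaks on the non-mitotic side are also what most genes show: 20.3% of all protein-coding genes had a peak in any library and 9.62% in exactly 1. In kinesin-3, Kif14 had a peak in all 6 libraries, and Kif1a, Kif1b, Kif1c, Kif13a, Kif13b and Kif16b had one in at most 1. In kinesin-4 the same held for Kif4 against Kif7, Kif21a, Kif21b and Kif27. In kinesin-8 it held for Kif18a and Kif18b against Kif19a, a kinesin of motile cilia, in kinesin-12 for Kif15 against Kif12, and in kinesin-14 for Kifc1 against Kifc2 and Kifc3. Kinesin-13 was not divided this way, as Kif24 and Kif2a had peaks in all 6 libraries outside the mitotic list.

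Peaks at most of these kinesins lay at the annotated gene boundary. The highest peaks at the 14 kinesins found at a time numbered 83 over the libraries. Their summits lay a median of 24 bp from a gene boundary, and 72 of the 83 lay within 100 bp of one. Under the same choice, the highest peak of each gene found in at least 4 libraries, 49.6% of 4679 summits at 878 protein-coding genes lay within 100 bp of the gene's boundary. Summits of 1 gene in several libraries are not independent, and no test was made. The 6 summits at Kif18b spanned 20 bp, those at Kif2c 18 bp and those at Kif20a 16 bp. Kif20a and Kif2a made up the 11 summits beyond 100 bp, and a single one of Kif2a (96 bp, replicate 3 of 14 h) lay nearer. Kif20a summits lay 292 to 308 bp inside the gene, and those of Kif2a 96 to 212 bp outside it.

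**Figure D3:**
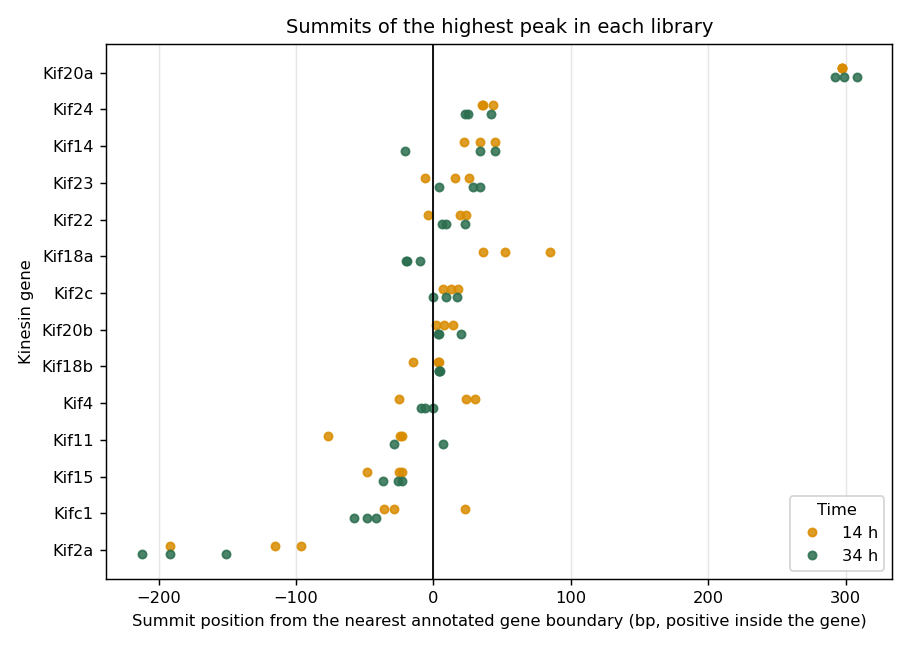
Summit of the highest peak in each library relative to the nearest annotated boundary of the gene (x axis, bp; positive values lie inside the gene), for the 14 kinesins found at a time (rows); each point is 1 library, orange at 14 h and green at 34 h. All genes but Kif20a (292 to 308 bp inside) and Kif2a (96 to 212 bp outside) have every summit within 100 bp, and the Kif18a summits of the 2 times lie on opposite sides of the boundary.

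At Kif18a the summit position differed between the times. It lay 36 to 85 bp inside the gene in the 3 libraries of 14 h and 10 to 20 bp outside it in those of 34 h. The summits of the times were also apart at Kifc1, by 6 bp at the nearest. Of the 13 kinesin regions found in all 6 libraries, these 2 had summits that did not overlap between the times, and 15.4% of the 428 common regions did, so the kinesin share is near the background.

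Promoter windows of 300 bases, from 250 before to 50 after a RefSeq transcript start on GRCm38.p6, were matched by symbol for 32 of the 40 kinesins. Those without an entry were Kif5a, Kif5b, Kif13b, Kif19a, Kif20a, Kif21b, Kifc2 and Kifc3. Of the 11 mitotic genes with a window, 9 had a called summit inside it. At Kif2c and Kif14 the window given belongs to another start, about 3.8 and 1.5 kb from the summits, and these windows are not used further. Hexamers and short motifs known from promoters of cell cycle genes were searched on both strands. The hexamer TTTGAA and its variant form TTCGAA stand for the cell cycle homology region, to which the MuvB complex binds. The box CCAAT is bound by NF-Y. The E2F-like motifs were TTTCCCGC, then TTTGGCGC and also TTCCCGCC. The GC boxes were GGGCGG and its partner CCCGCC, which can overlap each other, and CCCGCC also lies inside TTCCCGCC.

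TTTGAA was found in 8 of the 9 mitotic windows that held a summit, against 16.0% of 21263 promoter windows of protein-coding genes and 3 of 22 windows of the other kinesins without a reproducible region. Those 22 were not screened for starts away from the gene boundary, and the matches at Kif27 and Kif1a lie in such windows. The 9 were taken by a summit of any library, and 14.9% of the 2525 windows of protein-coding genes that met this rule had TTTGAA. Among the 541 windows of any protein-coding gene that held a summit of at least 2 libraries of 14 h, 29.8% had TTTGAA. The Kif18a window does not meet this stricter rule. The ninth mitotic window, that of Kif18a, held TTTGGCGC, which 0.635% of all windows and 4.44% of the 541 do. Kif15 held both. CCAAT stood in 6 of the 9 (38.2% of all windows and 58.6% of the 541), and at least 1 of the GC boxes in 9 of 9 (53.0% of all windows and 88.5% of the 541). None of the 9 held TTCGAA (1.85% of all windows and 5.91% of the 541), the motif TTTCCCGC (1.41% and 12.4%) or the motif TTCCCGCC (2.85% and 16.6%). Of the 2525 windows, 2.1% held TTTGGCGC, 57.5% CCAAT, 85.6% a GC box, 3.56% TTCGAA, 5.31% TTTCCCGC and 8.71% TTCCCGCC. A match is a stretch of letters and not a shown binding site.

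In all 8 mitotic windows with a summit of at least 2 libraries of 14 h, the centre of the nearest TTTGAA was within 50 bp of the median 14 h summit. Of the 541 windows, 24.2% had one as near, or 131 of the 161 that held TTTGAA (81.4%), so nearness given a match is not particular to kinesins. The distance varied between libraries, from 0.5 to 21.5 bp at Kif23, from 2.5 to 46.5 at Kif4, from 10.5 to 30.5 at Kif18b and from 6.5 to 31.5 at Kif15. Summits of 1 library at Kif11 and of 2 at Kifc1 lay beyond 50 bp, at up to 60.5 and 61.5 bp.

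The 4 mitotic kinesins with the highest folds among those whose window held a summit are shown so that these positions can be read. Sequences are from RefSeq on GRCm38.p6, 5′ to 3′ on the gene's strand, with the annotated start at base 251. Capitals mark the cell cycle homology hexamers, the NF-Y box and the E2F-like motifs on either strand, so TTCAAA is a hexamer match on the other strand and ATTGG an inverted NF-Y box. Kif18b and Kif23 carry TTTGAA 3 and 2 bases past the start, and in Kif23 an inverted CCAAT stands just before it. In Kif15 an inverted TTTGGCGC is followed directly by an inverted TTTGAA.
Kif18b (chr11:102925075-102925374, minus strand): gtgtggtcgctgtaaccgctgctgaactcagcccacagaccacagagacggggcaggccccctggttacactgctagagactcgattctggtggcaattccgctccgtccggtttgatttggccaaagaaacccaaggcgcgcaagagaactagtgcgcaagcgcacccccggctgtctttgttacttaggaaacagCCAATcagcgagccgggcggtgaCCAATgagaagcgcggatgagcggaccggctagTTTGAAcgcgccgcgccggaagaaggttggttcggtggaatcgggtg
Kif23 (chr9:61946750-61947049, minus strand): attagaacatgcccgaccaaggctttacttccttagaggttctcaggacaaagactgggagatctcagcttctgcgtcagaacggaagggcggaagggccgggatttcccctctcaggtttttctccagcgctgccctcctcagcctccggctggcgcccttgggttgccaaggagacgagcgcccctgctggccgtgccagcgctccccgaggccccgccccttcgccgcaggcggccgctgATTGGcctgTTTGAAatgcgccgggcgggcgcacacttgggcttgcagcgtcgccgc
Kif15 (chr9:122950831-122951130, plus strand): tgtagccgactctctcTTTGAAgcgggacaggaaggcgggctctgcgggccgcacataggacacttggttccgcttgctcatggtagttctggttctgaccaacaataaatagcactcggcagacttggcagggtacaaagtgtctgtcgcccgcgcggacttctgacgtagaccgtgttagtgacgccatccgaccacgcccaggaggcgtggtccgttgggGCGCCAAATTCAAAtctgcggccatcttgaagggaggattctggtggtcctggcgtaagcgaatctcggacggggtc
Kifc1 (chr17:33890584-33890883, minus strand): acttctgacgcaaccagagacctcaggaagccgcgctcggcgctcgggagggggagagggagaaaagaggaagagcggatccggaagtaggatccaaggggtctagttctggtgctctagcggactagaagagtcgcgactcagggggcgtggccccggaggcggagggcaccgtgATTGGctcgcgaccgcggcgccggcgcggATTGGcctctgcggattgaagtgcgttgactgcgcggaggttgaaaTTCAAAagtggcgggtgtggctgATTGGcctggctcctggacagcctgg

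Kif24 and Kif2a, the other kinesins with a peak in all 6 libraries, are shown for comparison. Kif24 has no TTTGAA but a TTCGAA 26 bases before the start, with 4 inverted CCAAT boxes upstream, and Kif2a has none of the marked motifs. The GC content of the Kif2a window was 81.7%, against a median of 62.3% for the 9 mitotic windows and 56.3% for all windows.
Kif24 (chr4:41464799-41465098, minus strand): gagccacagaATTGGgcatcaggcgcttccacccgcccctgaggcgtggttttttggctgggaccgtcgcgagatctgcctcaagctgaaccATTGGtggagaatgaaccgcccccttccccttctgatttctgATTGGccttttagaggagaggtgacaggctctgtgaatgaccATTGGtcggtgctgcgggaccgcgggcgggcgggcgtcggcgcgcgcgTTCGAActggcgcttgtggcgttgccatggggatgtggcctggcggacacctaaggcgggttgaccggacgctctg
Kif2a (chr13:107022306-107022605, minus strand): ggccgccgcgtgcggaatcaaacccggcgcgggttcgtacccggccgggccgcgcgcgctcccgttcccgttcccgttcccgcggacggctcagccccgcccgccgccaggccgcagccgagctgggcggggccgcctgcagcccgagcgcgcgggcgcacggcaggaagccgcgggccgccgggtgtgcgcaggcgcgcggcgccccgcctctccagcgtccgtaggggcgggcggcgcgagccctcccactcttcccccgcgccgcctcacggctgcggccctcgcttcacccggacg

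The windows of Kif1c and Kif3a, transport kinesins with no peak in any library, had no TTTGAA and no TTCGAA. The Kif3a window belongs to a start at 53567369, inside the gene, whose boundary is at 53565701. The sequence at that boundary was not read. The hexamer was present without a peak at Kif26b and Kif27, each also with CCAAT, and in 1 of the windows of Kif1a. Kif26b, a kinesin-11 gene, is shown as such a case and was chosen after its motifs were seen. Kif3a has a single inverted CCAAT. The windows of Kif1c and Kif3a also hold a GC box, as 14 of the 22 windows of other kinesins without a reproducible region do.
Kif1c (chr11:70700298-70700597, plus strand): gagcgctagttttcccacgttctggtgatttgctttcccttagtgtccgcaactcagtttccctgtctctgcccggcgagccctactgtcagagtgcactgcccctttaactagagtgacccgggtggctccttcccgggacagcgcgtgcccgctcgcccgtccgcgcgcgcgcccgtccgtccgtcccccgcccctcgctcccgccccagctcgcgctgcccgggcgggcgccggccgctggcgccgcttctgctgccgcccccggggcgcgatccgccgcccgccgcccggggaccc
Kif3a (chr11:53567119-53567418, plus strand): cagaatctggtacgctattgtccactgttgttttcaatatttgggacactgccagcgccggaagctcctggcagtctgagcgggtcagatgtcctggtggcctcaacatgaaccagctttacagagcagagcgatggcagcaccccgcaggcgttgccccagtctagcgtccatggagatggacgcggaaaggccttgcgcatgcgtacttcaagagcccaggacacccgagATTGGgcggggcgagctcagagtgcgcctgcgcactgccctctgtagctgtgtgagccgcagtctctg
Kif26b (chr1:178528875-178529174, plus strand): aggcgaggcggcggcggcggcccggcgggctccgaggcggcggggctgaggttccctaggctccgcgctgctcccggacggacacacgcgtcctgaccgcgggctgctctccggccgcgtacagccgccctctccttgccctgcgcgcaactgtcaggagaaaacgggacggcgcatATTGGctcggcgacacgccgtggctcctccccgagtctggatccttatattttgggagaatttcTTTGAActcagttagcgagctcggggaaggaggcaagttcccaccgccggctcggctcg

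Differences between the times were read from ranks, since folds of separate lists are not on a common scale. Within each library the folds of the 428 regions found in all 6 libraries were placed on a scale from 0 to 100, and 13 of these regions lay at kinesins (11 mitotic, Kif24 and Kif2a). Kif20a stood at 91.1, 97.2 and 89.2 at 14 h and at 99.8, 98.1 and 99.8 at 34 h. Kif18b (means of 94.1 ± 1.86 and 88.3 ± 7.81, SD, n = 3 each) and Kif2c (87.9 ± 5.66 and 81.1 ± 5.85) followed. Kif2a was lowest, at 16.2 ± 5.55 and 21.8 ± 13.2, and Kif4 was next lowest over the 6 libraries, at 27.7 ± 15.1 and 43.2 ± 18.6. The kinesins thus spanned nearly the whole scale, and the median of the 13 lay between 55.3 and 75.6 in every library.

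Ranks of the times did not overlap at 4 of the 13 regions. Kif18a went from 25.9, 19.7 and 27.0 to 70.3, 48.9 and 51.5, a difference of 32.7 points, and Kif20a differed by 6.7 points. Kif23 went from 81.7, 88.3 and 86.7 to 44.0, 43.9 and 79.9, a difference of -29.6 points, and Kif24 from 78.7, 88.5 and 70.3 to 51.3, 63.6 and 55.3, a difference of -22.4. At each of the 4 the exact two-sided permutation test gave p = 0.1, the smallest that 3 against 3 libraries allow, and an adjusted p of 0.310 (Benjamini-Hochberg over the 428 regions). None of the 428 passed at 0.05, which this design cannot reach; 32.2% had a p of 0.1, 17.5% with all 34 h ranks below and 14.7% with all above. For kinesins the shares were 2 of 13 in each direction, near the shares of all common regions. The folds of each time rest on a single shared input, so time and input cannot be told apart in this comparison.

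**Figure D4:**
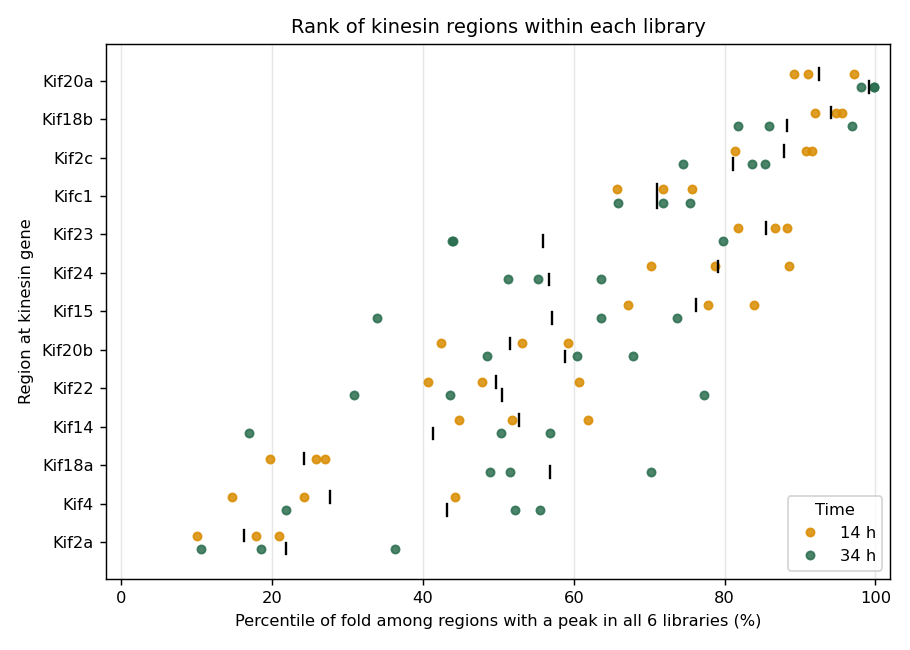
Percentile of each kinesin region by fold among the 428 regions with a peak in all 6 libraries (x axis, %), for the 13 kinesins in that set (rows); points are single libraries, orange at 14 h and green at 34 h, and black ticks are means of 3. Points of the times do not overlap for Kif20a and Kif18a (34 h higher) and for Kif23 and Kif24 (34 h lower).

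At Kif23 and Kif24 the rank difference went together with a difference in local background, whose part in it was not tested. At Kif23 the background was 1.08, 1.32 and 1.17 fragments at 14 h and 3.38, 4.09 and 2.61 at 34 h, while the summit held 37, 73 and 46 fragments and then 38, 58 and 39. At Kif24 the background was 1.41, 1.73 and 1.62 and then 4.23, 4.09 and 4.45, with 40, 86 and 42 fragments and then 50, 70 and 43. Background at 34 h lay above all values of 14 h in 10 of the 13 kinesin regions and in 65.9% of the common regions. Kif18a and Kif20a were among the 3 without such a shift, the other being Kif4. By their peak names, all libraries of a time share a single input. Their background values are therefore not independent measurements, and time cannot be told apart from input. With regions ranked by fragments in place of fold, Kif18a was the single kinesin whose times did not overlap (10.6 points higher at 34 h), Kif23 differed by -3.1 points and Kif24 by 6.1. Ranking by −log10 q likewise left Kif18a alone (19.2 points). The share of all common regions without overlap under these rankings is not given here, so Kif18a is not shown to stand out.

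Proteins that work with the mitotic kinesins were looked up as a list of 21 genes. At 14 h 20 of 21 had a peak in at least 2 libraries, and at 34 h again 20 of 21, against the 4.29% and 9.06% of all genes given above. The exception at each time was the mitotic kinase gene Aurka, with a fold of 4.13 in replicate 2 of 14 h and of 4.38 in replicate 3 of 34 h. The list includes Cenpe, a mitotic kinesin of the kinetochore that is not among the 40 genes. Cenpe was lower than most, with no peak in replicate 1 of 14 h, folds of 8.74 and 8.69 in replicates 2 and 3, and 7.88 ± 0.652 at 34 h (SD, n = 3).

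Some partners of single motors had folds near those of the motor and others did not. No difference between a motor and its partner was tested. Racgap1, the other subunit of centralspindlin, had a fold of 24.4 ± 5.98 (SD, n = 3, here and in the values that follow) at 14 h and 13.4 ± 3.73 at 34 h, where Kif23 had 23.9 ± 7.09 and 10.5 ± 1.43. The passenger complex, a cargo of Kif20a (30.7 ± 12.7 and 28.9 ± 3.88), was represented by Incenp (45.3 ± 11.5 and 29.1 ± 8.88), Birc5 (23.8 ± 7.70 and 20.7 ± 5.42), Aurkb (22.2 ± 7.37 and 9.87 ± 0.300) and Cdca8 (20.9 ± 1.37 and 13.7 ± 5.67). Prc1, the bundling protein that Kif4 binds, gave 12.5 ± 2.63 and 8.45 ± 2.21. Tpx2, a spindle assembly factor that binds Kif11 and Kif15, gave 8.11 ± 1.56 and 8.21 ± 2.71.

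Light chains, adaptors, dynein and dynactin subunits that serve transport formed a list of 30 genes. Of these 1 met the rule at 14 h and 3 at 34 h, near the 4.29% and 9.06% of all protein-coding genes. A peak in any library was found at 8 of the 30, against 20.3% of all genes. The one found at both times was Dctn5, a dynactin subunit, with a fold of 17.8 ± 1.32 (SD, n = 3) at 14 h and of 13.0 ± 2.50 (SD, n = 3) at 34 h. Whether peaks of either partner list, that of Dctn5 included, are shared with a neighbouring gene was not examined. Kifap3, the adaptor of kinesin-2, had a peak in replicates 1 and 2 of 34 h (4.81 and 5.78), and Bicd2, a dynein adaptor, in the same libraries (5.30 and 5.20) and in replicate 2 of 14 h (6.93). All 4 kinesin light chain genes, Trak1, Rhot1 and Rhot2 were among the 22 with no peak in any library.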

How the data were processed

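The 8 samples are 3 IP libraries and 1 input at each of 2 times, grouped by their titles. Per the submitters' processing notes, the tools were Subread and MACS2 and the build mm10. No version or calling threshold is given in the sources used here. Peak names in the deposited lists pair each IP library with the input from the same time. The authors' fold is a ratio, on a linear scale, of summit signal over local background. Significance was deposited as the −log10 of a p-value and of a q-value, and the deposited score is 10 times −log10 q, rounded down. Precision is limited by fragment numbers: summits stood on at least 10 fragments.

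Genes came from RefSeq on GRCm38.p6, whose primary assembly is mm10. A total of 113 protein-coding genes listed in patch scaffold coordinates were left out. Every kinesin was named: those with a peak in at least 2 libraries of a time with each value, those with 1 peak with that value, and those with none by count; other genes were named only from the partner lists or where they share a kinesin peak. The members and lists were chosen with earlier results of these data known. Fragments k and background were solved from fold = (k + 1)/(background + 1) and the Poisson p-value, for 100% of peaks to within 0.001 on the −log10 scale. Ranks were compared by exact two-sided permutation tests over libraries, which measure only the spread between these samples. Libraries of a time share an input, so their folds are not fully independent. Code was tested on simulated data (Python 3.11.15, scipy 1.17.1, pandas 2.3.3).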

Additional observations from a re-analysis of the deposited data

How the results depend on the processing

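The count of mitotic kinesins stayed within 1.5 times of 12 at each time under 15 of 16 alternatives, including a −log10 q of at least 5, lists of equal length, all 3 libraries required and each library left out. With genes left out whose peak also lies within 1 kb of a neighbour's boundary, 7 mitotic kinesins remained at each time. All 7 have a peak by construction, since only genes with a peak are left out, so this setting cannot check the share. Kif4, Kif15, Kif18a and Kif20a share their main region and Kif22 a smaller peak. The count of other kinesins, 2 in the analysis reported, was 1 at both times without a flank or with shared peaks left out, 4 at 14 h with a flank of 5 kb, 1 at 34 h with lists of equal length (768 peaks each) and 10 at 34 h in any library. With a library of 34 h left out and 1 of the remaining libraries sufficient it ran from 2 (without replicate 2) to 10 (without replicate 1 or replicate 3). The number of kinesin regions whose ranks did not overlap between the times was 4; it fell to 1 with ranks of −log10 q and to 1 with ranks of summit fragments, an alternative chosen after seeing the data, and lay between 4 and 6 with a library left out. The rank difference turned direction by −log10 q at Kif4 (-1.7 points) and Kif22 (-4.9), and by fragments at Kif2c (3.5), Kif4 (-9.4), Kif20b (-1.6) and Kif24 (6.1). With a library left out it turned at Kif22 (-12.5 to 10.7 points), Kif2a (-1.7 to 11.2 points) and Kif14 (-19.2 to 0.9 points); the cause was not tested. Replicate numbers are not stated to pair the libraries: deviations of equal numbers correlated at 0.0455, 0.260 and 0.0825 over common regions, and replicate 1 of 14 h correlated best with replicate 3 of 34 h. With a replicate block the differences of equal numbers had 1 sign at 6 of the 13 regions. There the exact sign-flip test cannot go below 0.25. Shares of all common regions under this and the other rank alternatives are not given here, so these counts have no background beside them. Depth limits what can be read from absent peaks: no called summit stood on fewer than 10 fragments, so a weak site can fall below the caller's threshold.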
